A study of Mus musculus with 108 samples.

Results

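The 37 genes described here encode enzymes and carriers that burn fatty acids and make ketone bodies in mouse liver. They were chosen by name, and each is represented by its transcript with the highest mean. All 37 of them were found among the 25124 gene symbols of each of the 3 deposited expression tables, and all 37 had a mean of at least 10, the level required for testing, in every table. In the wild-type libraries 11286 genes were tested. The genes fall into 5 for activation and the carnitine shuttle, 11 for mitochondrial beta oxidation, 3 for electron transfer, 10 for the peroxisome, 5 acyl-CoA thioesterases, 1 for ketone bodies (Bdh1) and 2 linked enzymes (Pdk4 and Vnn1).

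RNA was sequenced from livers of male mice in 108 libraries, which form 6 sets of 18. Each set has 3 numbered replicates at zeitgeber times (ZT, in hours from lights on) of 2, 6, 10, 14, 18 and 22. No label ties a replicate to its own animal, and p-values therefore reflect only how much these samples vary. The study asked how genetic background and diet together shape daily rhythms of the liver. Of the sets 4 are wild type, namely C57BL/6J (B6) and 129S1/SvImJ (129) mice, each fed normal chow or the diet D12492i, rich in fat and sucrose (HFD). The fifth set carries the genotype Errg-Cre on 129 with HFD. The last is a hepatocyte-specific Esrrg knockout (Esrrg LKO) with diet-induced obesity on HFD, titled B6 but with the mixed strain label B6S1/SvImJ. The labels give no age, no time on the diet and no promoter for the Cre. Libraries of control mice for these genotypes were not used here, so no genotype is tested.

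A long-chain fatty acid is first activated to its coenzyme A ester, and carnitine palmitoyltransferase 1 then moves the chain onto carnitine, the step that limits its entry into mitochondria. There the acyl-CoA dehydrogenases, hydratases, hydroxyacyl-CoA dehydrogenases and thiolases shorten it in cycles and pass electrons to the electron transfer flavoprotein. Peroxisomes shorten very long and branched chains, and the liver turns much of the acetyl-CoA it makes into ketone bodies during fasting. PPAR alpha is the best known activator of these genes in liver.

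The values are quantile-normalised signal, which gives all libraries of a table one common total, and sequencing depth is unknown. All 7 hepatocyte markers checked had a mean above 1 in every set. The means of Adipoq, Lep and Plin1 (adipocyte), Acta1, Ckm and Myh4 (skeletal muscle) and Cpa1 and Prss2 (pancreas) were below 1 in every set. Of the same lists, Cfd (adipocyte) was not below 1 in the B6 and knockout sets. Cela1 (pancreas) was not below 1 in any set. Several libraries stood apart, and the results were also computed without some of them. In B6 chow at ZT14 replicate 3, 14.8% of the tested genes were below 1, against a median of 0.31% in that set. A share of 3.25% was found for replicate 1 of B6 HFD at ZT6, and 6.95% for replicate 3 of 129 chow at ZT22. The clock gene Arntl, which follows the time of day, was at 36.7 in B6 HFD ZT22 replicate 3, against 229 and 180 in the other replicates of that time. In the Errg-Cre set Arntl was at 260 in ZT6 replicate 3, against 23.7 and 14.5, and at 206 in ZT10 replicate 3, against 13.6 and 15.4. The level of the non-coding RNA gene Mir6236 ranged from 32.8 to 1171 in B6 chow, 915 to 91012 in B6 HFD, 27.7 to 61431 in 129 chow and 294 to 4030 in 129 HFD. The results were therefore also computed with the Mir6236 level as a covariate and with each library's trend over transcript GC content and length removed. Esrrg, the targeted gene, had a median of 16.4 (lowest 7.64, highest 39.4) in the knockout libraries and 25.9 (8.23 to 62.0) in the Errg-Cre libraries, against medians from 16.5 to 29.4 in the wild-type sets. The transcript with the highest mean differed between the knockout table and the others, and whether it covers the deleted part is not given, so these values do not check the label.

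The promoters of 32 of the 37 genes were matched in RefSeq (build GRCm38.p6), each as the 250 bases before and 50 after the start. None of the 32 held TCAAGGTCA or TNAAGGTCA, the element of estrogen-related receptors, or the DR1 direct repeat read by PPAR, in a strict or a looser form, on either strand. Of all 32851 promoters of that length, 0.423%, 1.28%, 0.0396% and 0.381% held them. The half-site AGGTCA, looked for afterwards, since the longer motifs gave no match, occurred on either strand in 6 of the 32 (18.8%) and in 16.3% of all promoters. The 6 genes were Cpt1a, Acadm, Acadvl, Echs1, Acot3 and Acot4. The 250 bases before the start are shown for Cpt1a and Acadm, whose levels are followed throughout, and for Hadhb, whose upstream bases lie between it and its divergent neighbour Hadha. Each runs 5′ to 3′ along the gene's strand, with the half-site, on the opposite strand, in capitals.
Cpt1a, chr19:3323051-3323300, plus strand: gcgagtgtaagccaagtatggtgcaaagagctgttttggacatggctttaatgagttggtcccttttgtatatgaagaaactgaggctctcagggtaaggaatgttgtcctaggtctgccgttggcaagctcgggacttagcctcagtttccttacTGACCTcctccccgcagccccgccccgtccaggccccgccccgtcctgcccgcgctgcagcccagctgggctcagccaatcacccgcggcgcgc
Acadm, chr3:153944644-153944893, minus strand: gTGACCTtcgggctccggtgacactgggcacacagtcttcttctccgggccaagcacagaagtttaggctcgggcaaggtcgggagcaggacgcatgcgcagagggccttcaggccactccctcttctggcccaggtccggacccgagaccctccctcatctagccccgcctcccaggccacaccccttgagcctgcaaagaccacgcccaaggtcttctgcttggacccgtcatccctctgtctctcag
Hadhb, chr5:30155003-30155252, plus strand, no half-site: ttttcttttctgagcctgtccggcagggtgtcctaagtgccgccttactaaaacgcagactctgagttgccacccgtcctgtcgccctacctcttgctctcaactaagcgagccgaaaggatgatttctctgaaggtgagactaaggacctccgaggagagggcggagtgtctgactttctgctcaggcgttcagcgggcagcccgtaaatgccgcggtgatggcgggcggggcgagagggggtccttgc
The starts of Hadha and Hadhb, which encode the 2 subunits of the mitochondrial trifunctional protein, are 272 bases apart on mm10 (Hadha chr5:30119423-30154980, minus strand, and Hadhb chr5:30155253-30184593, plus strand). A match or its absence describes these letters in this window and says nothing on binding.

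Levels differed widely among the genes. Per kilobase of transcript, mean signal in B6 chow was highest for Abcd3 (2248), the peroxisomal importer of acyl-CoA, Acsl1 (2074), which activates long-chain fatty acids, Crot (1956), the peroxisomal carnitine octanoyltransferase, and Acaa2 (1831), the mitochondrial thiolase. It was lowest for the thioesterases Acot2 (7.30) and Acot8 (15.1) and for Pdk4 (30.4), the kinase that shuts off pyruvate dehydrogenase. Some genes have close copies whose reads may be misplaced. Acaa1a and Acaa1b matched at 96.6% over 1428 bases, Acot1 and Acot2 at 93.8% over 1337 and Acot1 and Acot3 at 85.1% over 1218, so their separate values are uncertain.

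In B6 livers most of these enzymes were higher on the diet. Of the 37 genes 25 rose and 4 fell (limma, adjusted p below 0.05), while 27.5% of all tested genes rose and 32.67% fell (60.17% called in all). Their median log2 difference was 0.54, beside -0.06 over all genes. The values below are means over the 6 times, and the log2 differences are on the log2(signal + 1) scale with their standard error (SE).

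For the carnitine shuttle the change was greatest at its entry enzyme. Cpt1a signal lay between 932 and 2719 (median 1535) in the 18 B6 chow libraries and between 2580 and 4606 (median 3395) in the 18 HFD libraries. All 18 HFD libraries were above the chow median and 14 were above every chow library. The log2 difference was 1.12 (SE 0.08, adjusted p = 1.1e-17) and was positive at each of the 6 times. Crat, which links acetyl groups to carnitine, rose by 0.83 (SE 0.14) and the carrier Slc25a20 by 0.35 (SE 0.06). Cpt2, the inner membrane transferase, differed by 0.07 (SE 0.08) and Acsl1 by 0.18 (SE 0.09), and neither passed the test.

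In the mitochondrial spiral 9 of 11 genes rose. Acads, the short-chain acyl-CoA dehydrogenase, lay between 53.8 and 359 (median 123) on chow and between 321 and 742 (median 538) on HFD. Of the HFD libraries 17 of 18 were above every chow library. Its log2 difference was 1.99 (SE 0.19, adjusted p = 8.1e-13). The medium-chain dehydrogenase Acadm had 1301 to 2019 (median 1828) on chow and 1624 to 3422 (median 2638) on HFD, a rise of 0.54 (SE 0.07, adjusted p = 4.2e-09). The 2 sets overlapped only in part, with 16 of 18 HFD libraries above every chow library. Eci1, an enoyl-CoA isomerase, rose by 1.01, the thiolase Acaa2 and the very-long-chain dehydrogenase Acadvl by 0.92 each, and Hadh, the short-chain hydroxyacyl-CoA dehydrogenase, by 0.83. Each of these genes, with Acads and Acadm, differed least at ZT22. There the differences were 0.71 (SE 0.46) for Acads, 0.07 (SE 0.17) for Acadm and 0.21 (SE 0.29) for Eci1. They were 0.10 (SE 0.24) for Acaa2, 0.26 (SE 0.31) for Acadvl and 0.32 (SE 0.16) for Hadh. Hadha rose by 0.60 (SE 0.08), while its partner Hadhb differed by 0.16 (SE 0.08) with adjusted p = 0.058. The long-chain dehydrogenase Acadl differed by 0.11 (adjusted p = 0.092).

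The electron transfer flavoprotein moved in opposite directions. Etfb, its beta subunit, was at 91.7 to 655 (median 243) on chow and 443 to 979 (median 722) on HFD, a rise of 1.52 (SE 0.19, adjusted p = 3.7e-09). Etfa, its alpha subunit, fell by 0.57 (SE 0.06, adjusted p = 2.1e-10), with 16 of 18 HFD libraries below every chow library. Etfdh, which passes the electrons on to ubiquinone, rose by 0.31 (SE 0.06).

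Among peroxisomal genes 7 of 10 rose and 2 fell. Ech1, a dienoyl-CoA isomerase, had 202 to 1284 (median 592) on chow and 1089 to 2524 (median 1921) on HFD. It rose by 1.63 (SE 0.15, adjusted p = 1.3e-12), and 17 of 18 HFD libraries were above every chow library. The thiolases Acaa1a and Acaa1b rose by 1.38 and 1.22. Ehhadh, the bifunctional hydratase and dehydrogenase, was at 1612 to 3018 (median 2026) on chow and 524 to 2524 (median 1670) on HFD. It fell by 0.47 (SE 0.11, adjusted p = 0.00016) with the same sign at 5 of 6 times, and the sets overlapped widely. Abcd3 fell by 0.40 (SE 0.07). Crot differed by 0.11 (SE 0.09), which did not pass.

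Bdh1, the enzyme that interconverts acetoacetate and beta-hydroxybutyrate, was the only one of the 37 genes whose B6 diet groups did not overlap in any library, as was so for 0.7354% of all tested genes. Its signal was 160 to 806 (median 406) on chow and 915 to 1968 (median 1384) on HFD. The rise was 1.69 (SE 0.11, adjusted p = 3.5e-18), between 1.38 and 2.38 at the 6 times. Of the thioesterases, which free the fatty acid from coenzyme A, Acot8 rose by 1.01 and Acot2 by 0.89, and Acot1 fell by 0.92 (SE 0.21, adjusted p = 0.00016). Pdk4 was at 10.304 to 237 (median 106) on chow and 16.3 to 354 (median 45.4) on HFD, a difference of -0.17 (SE 0.22) that did not pass. This mean covers opposite signs, -2.07 at ZT6 and 1.63 at ZT14 (SE 0.53 each). At the other times the Pdk4 difference was between -0.74 and 0.17. Vnn1, the pantetheinase, rose by 0.94 (SE 0.18).

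**Figure D1:**
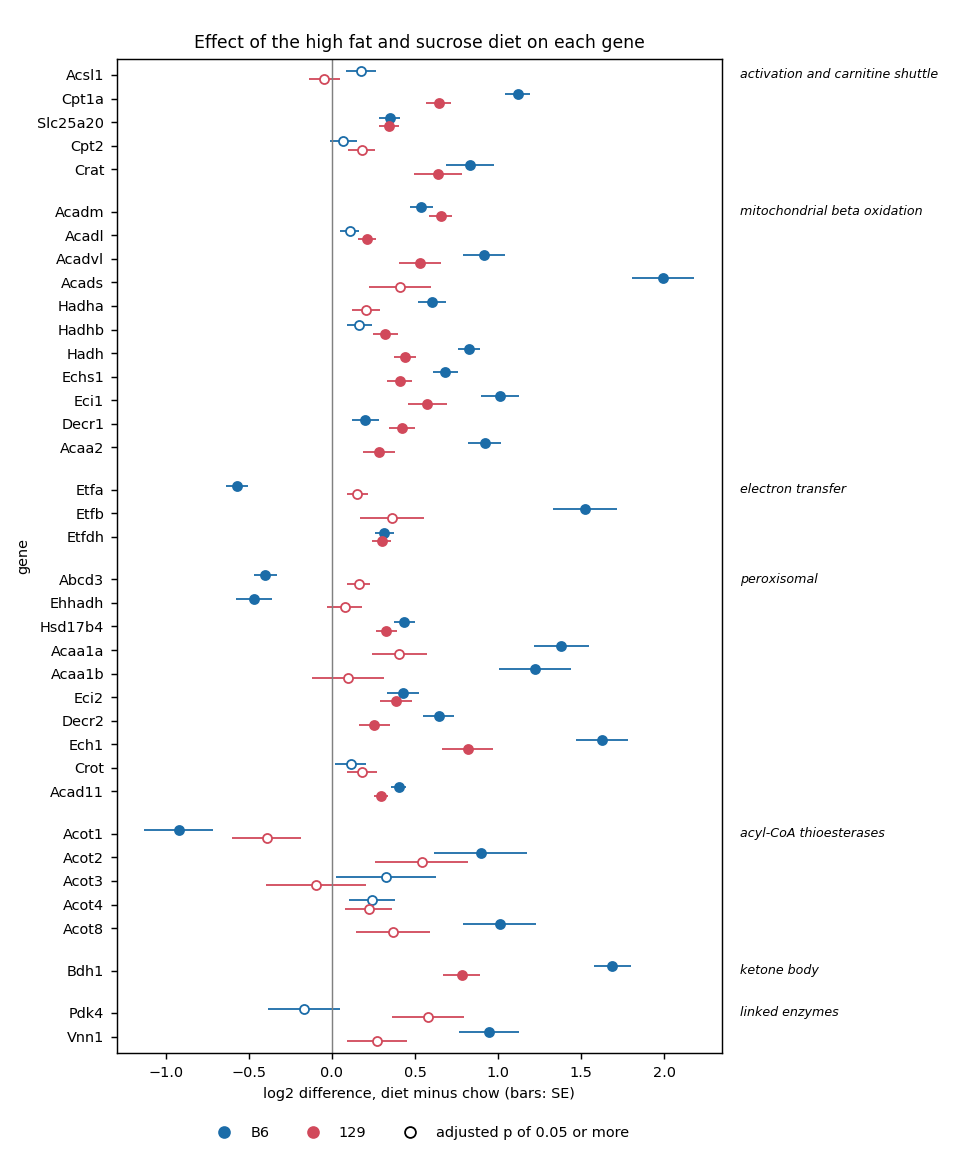
Log2 difference between the high fat and sucrose diet and chow (x axis, mean over 6 times, bars are SE) for each of the 37 genes (y axis, grouped by step) in B6 and 129. Filled points have an adjusted p below 0.05. Most B6 points lie right of the 129 points, with Acads at 1.99 in B6, and Etfa, Abcd3, Ehhadh and Acot1 lie left of 0 in B6.

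Most of the individual B6 calls depended on how the Mir6236 level was treated, while the direction did not. With it as a covariate 8 of the 29 calls remained with the same sign, all of them rises, when 5.01% of all genes were called, and all 29 kept their sign. The 8 genes were Cpt1a (0.85), Hadh (0.59), Echs1 (0.56), Etfdh (0.35), Ech1 (0.75), Acad11 (0.32), Bdh1 (1.14) and Vnn1 (1.09). Acads was then at 0.77, Etfb at 0.30 and Acaa1a at 0.53, none of which passed. With the GC and length trend removed 26 of the 29 calls remained, when 47% of all genes were called. Acads was then at 1.24, Acaa1a at 0.66 and Acaa1b at 0.52. The falls of Abcd3 (-0.02) and Ehhadh (-0.18) then no longer passed. Diet and the Mir6236 level are largely confounded in B6 and cannot be told apart. Markers of the cell types of the liver also moved. Of 7 hepatocyte markers 2 rose in B6 and 3 fell (Alb -1.73, Cps1 -0.77 and Tat -0.58), with a summed level of 925563 to 976351 (median 949688) on chow and 85441 to 1034980 (median 275565) on HFD. Of 7 Kupffer cell markers 4 rose in B6, with a summed level of 740 to 1931 on chow and 1111 to 5070 on HFD. Of the 6 stellate cell markers tested 4 rose, and so did 4 of 6 of sinusoidal endothelium. The stellate sums were 1578 to 2249 on chow and 1756 to 3425 on HFD, and the endothelial sums 1218 to 1915 and 1401 to 2301. The 4 adipocyte markers summed to 0 to 8.20 on chow and 0.106 to 260 on HFD, of which Adipoq, Lep and Plin1 stayed below 1. The remaining adipocyte marker, Cfd, rose by 4.66. Cela1 of the pancreas rose by 0.94, and of 3 erythroid markers 1 rose, Hba-a1 (1.21). Their part in the result was not tested. In bulk tissue, fewer cells of a type and less RNA per cell cannot be told apart.

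**Figure D2:**
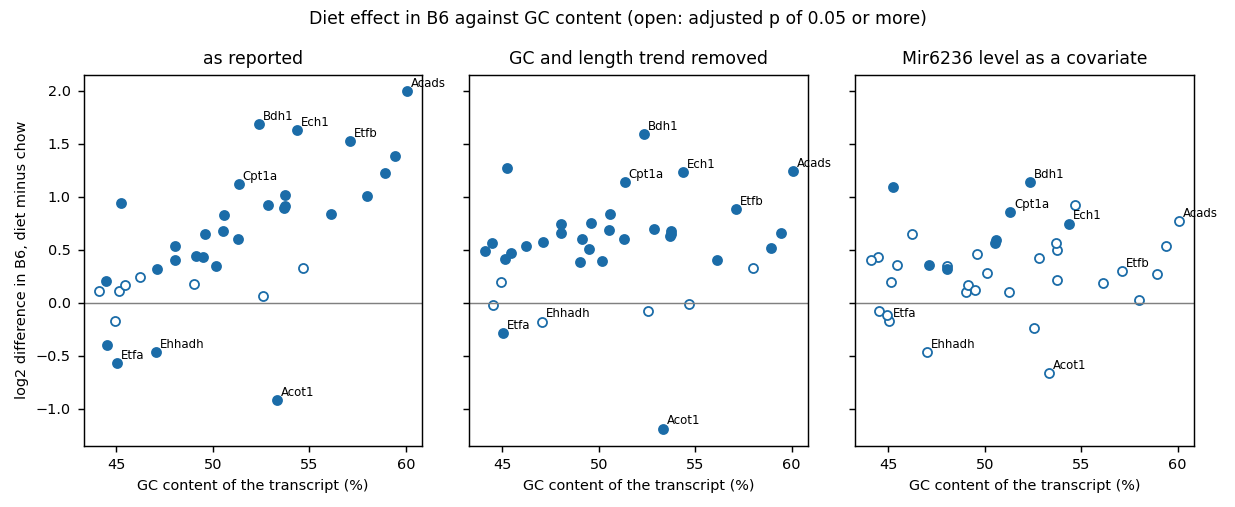
Log2 difference in B6 between diet and chow (y axis) against the GC content of the transcript in percent (x axis) for the 37 genes, as reported, with the GC and length trend removed, and with the Mir6236 level as a covariate. Filled points have an adjusted p below 0.05. As reported, GC-rich transcripts such as Acads (1.99) lie highest, and Bdh1 and Cpt1a stay filled in all 3 panels.

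In 129 livers the enzymes that changed were also higher on the diet. Of the 37 genes 19 rose and none fell, where 10.89% of all genes rose and 7.452% fell (18.34% called). At an unadjusted p below 0.05 (limma), 26 rose and again none fell, and the share of all genes was not counted at that threshold. The median was 0.33, beside 0.04 over all genes. Mitochondrial beta oxidation had 9 rises among 11 genes, the peroxisome 5 among 10 and the carnitine shuttle 3 among 5. The 5 thioesterases differed by -0.39 (Acot1) to 0.54 (Acot2) without passing. Hadhb rose by 0.32 (SE 0.08) in this strain and Hadha differed by 0.21 (SE 0.08), which did not pass.

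Ech1 led in 129, with 203 to 815 (median 625) on chow and 626 to 1268 (median 975) on HFD. Its log2 difference was 0.82 (SE 0.15, adjusted p = 8.2e-05), and 15 of 18 HFD libraries were above every chow library. Bdh1 was at 458 to 1340 (median 890) on chow and 979 to 1996 (median 1409) on HFD, a rise of 0.78 (SE 0.11, adjusted p = 3.1e-07). The HFD median of Bdh1 was close to that in B6 (1384), and the 129 chow median was above that of B6 chow (406).

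Acadm rose by 0.65 (SE 0.07, adjusted p = 1.6e-10), from 2087 to 3120 (median 2588) on chow to 2827 to 5061 (median 4181) on HFD. Of the HFD libraries 17 of 18 were above every chow library. Cpt1a rose by 0.64 (SE 0.08, adjusted p = 4.1e-09), from 982 to 3368 (median 1784) to 1844 to 4068 (median 2753). Its groups overlapped, since 14 of 18 HFD libraries lay within the wide range that Cpt1a covers over the day on chow. Ehhadh had medians of 1782 and 1799 and a difference of 0.08 (SE 0.11, adjusted p = 0.70). Pdk4 had medians of 31.0 and 54.9 and a difference of 0.58 (SE 0.22) at adjusted p = 0.054.

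Of the 19 rises in 129, all remained with the Mir6236 covariate, when 23.1% of all genes were called (18.34% as reported). With the GC and length trend removed 18 of the 19 remained, when 22% of all genes were called. Decr2 was the exception (0.25 as reported, adjusted p = 0.049, and 0.20 with the trend removed). Without replicate 2 of every group 10 of the 19 passed, when 4.93% of all genes did. Of 7 Kupffer cell markers 5 rose in 129, of 6 endothelial markers 2 rose and 1 fell, of 6 stellate markers 1 rose, and of 7 hepatocyte markers 1 rose and 1 fell. Cela1 of the pancreas rose by 0.82, and Cfd (-0.26) did not pass. The summed hepatocyte level was 291046 to 1036520 (median 750775) on chow and 528317 to 1039930 (median 981585) on HFD. The part of these cell types was not tested.

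**Figure D3:**
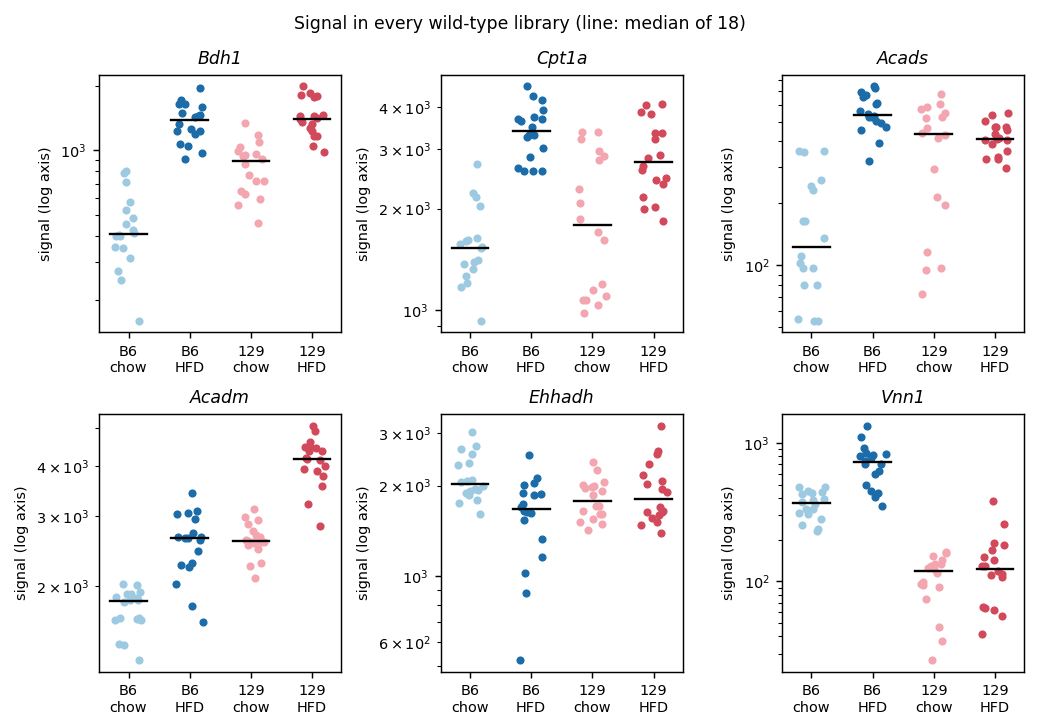
Signal of 6 genes (y axes, log scale) in each of the 72 wild-type libraries (points), by strain and diet (x axis), with the median of 18 libraries as a line. Bdh1 does not overlap between chow and HFD in B6 (highest chow 806, lowest HFD 915), and Vnn1 is lower in 129 than in B6 on both diets.

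The difference between the 2 diet effects was itself tested. Of the 37 genes 3 had a more positive diet effect in 129 and 14 a more negative one, where 20.13% and 14.26% of all genes did (34.39% called). The median difference, 129 minus B6, was -0.22, beside 0.10 over all genes. Acads differed most at -1.58 (SE 0.26, adjusted p = 1.8e-05), followed by Etfb at -1.16, Acaa1b at -1.12 and Acaa1a at -0.98. In 129 Acads was at 72.6 to 681 (median 435) on chow and 296 to 552 (median 413) on HFD, so that the chow libraries were spread over the whole range. Acaa1b had a median of 1766 on chow and 1638 on HFD in 129, against 1805 and 4125 in B6. Bdh1 (-0.91) and Cpt1a (-0.48) also rose less in 129. Etfa (0.72), Abcd3 (0.56) and Ehhadh (0.54), which fell in B6, were the 3 genes with a more positive effect in 129.

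None of these 17 differences passed with the Mir6236 covariate, under which 0.124% of all genes were called, and 5 of them changed sign. With the GC and length trend removed 13 of the 17 remained, among them Acads (-0.85), Bdh1 (-0.85) and Cpt1a (-0.49), when 17.2% of all genes were called. The Mir6236 level itself differed between the 4 sets, and its part in these differences was not tested.

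Between strains the genes split. On chow 12 of 37 were higher in 129 and 13 lower, where 25.45% and 27.5% of all genes were (52.95% called). On HFD 4 were higher and 15 lower, where 19.01% and 13.3% of all genes were (32.31% called). Vnn1 stood far apart. It was at 230 to 484 (median 367) in B6 chow and 27.1 to 162 (median 120) in 129 chow, with no overlap, as for 1.232% of all tested genes, a log2 difference of -1.84 (SE 0.18, adjusted p = 1.9e-12). On HFD the medians were 726 and 124, a difference of -2.52 (SE 0.18, adjusted p = 2.3e-17), with 17 of 18 of the 129 libraries below every B6 library.

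Of the 10 peroxisomal genes 3 were lower and 1 higher in 129 on chow, and 5 lower and 1 higher on HFD. Abcd3 was at 6169 to 10206 (median 7323) in B6 chow and 2823 to 4287 (median 3155) in 129 chow, again with no overlap. The difference was -1.23 (SE 0.07, adjusted p = 6.7e-22) on chow and -0.67 on HFD. Decr2, the peroxisomal dienoyl-CoA reductase, had medians of 981 and 674 on chow and 1655 and 747 on HFD, differences of -0.67 and -1.06 (SE 0.09). Acaa1b was lower on HFD by 1.23 on the log2 scale (-1.23, SE 0.22), while on chow its difference of -0.11 did not pass. Outside that group, the thioesterase Acot3 was lower on chow (-1.19, SE 0.30) and on HFD (-1.61, SE 0.30), with medians of 96.7 and 41.2, and 119 and 37.4. Pdk4 was lower on chow, with medians of 106 and 31.0 and a difference of -1.33 (SE 0.22, adjusted p = 1.5e-06), and on HFD by -0.58 (adjusted p = 0.035). The call on HFD was lost when any 1 of 13 libraries was left out, with adjusted p up to 0.096.

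Acadm went the other way on both diets. All 18 of the 129 chow libraries (2087 to 3120) were above all 18 B6 chow libraries (1301 to 2019), a difference of 0.59 (SE 0.07). On HFD the difference was 0.70 (SE 0.07, adjusted p = 1.9e-12). Acads (1.18), Etfb (1.10) and Bdh1 (0.98) were higher in 129 on chow, and on HFD their differences of -0.40, -0.07 and 0.08 did not pass. Cpt1a was higher in 129 on chow (0.22, SE 0.08) and lower on HFD (-0.26, SE 0.08).

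The chow comparison also depended on the treatment. With the Mir6236 covariate 9 of its 25 calls remained (10 genes called, 2 higher and 8 lower, where 12.8% of all genes were called). With the GC and length trend removed 17 of 25 remained (14 higher and 10 lower in all, where 40.1% of all genes were called). Vnn1, Abcd3, Decr2, Pdk4, Acadm and Bdh1 passed in both, Acads (0.36) and Etfb (0.28) did not pass with the covariate, and Acot3 (-0.79) did not either. On HFD 14 and 17 of the 19 calls remained, where 29.8% and 35.3% of all genes were called. With the covariate 6 genes were higher and 11 lower. Reads were aligned to the B6 genome, so a lower value in 129 may include reads lost to sequence differences, which was not tested. Kupffer cell markers were lower in 129 too, 5 of 7 on chow and 6 of 7 on HFD. Of 7 hepatocyte markers 4 were higher in 129 on chow and 1, Alb (-1.07), was lower. The median of their sum on chow was lower in 129 (750775) than in B6 (949688). On HFD 3 of 7 were higher, with median sums of 981585 in 129 and 275565 in B6. On HFD 4 of 6 stellate (1 higher) and 3 of 6 endothelial markers were lower. The adipocyte marker Cfd was lower on chow (-0.91) and HFD (-5.83), and Cela1 of the pancreas was higher (0.93 and 0.80). Cfd had a mean below 1 in 129 on each diet. It passed the filter through the B6 HFD libraries, so its difference on HFD is not independent of the filter. The part of these cell types was not tested.

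**Figure D4:**
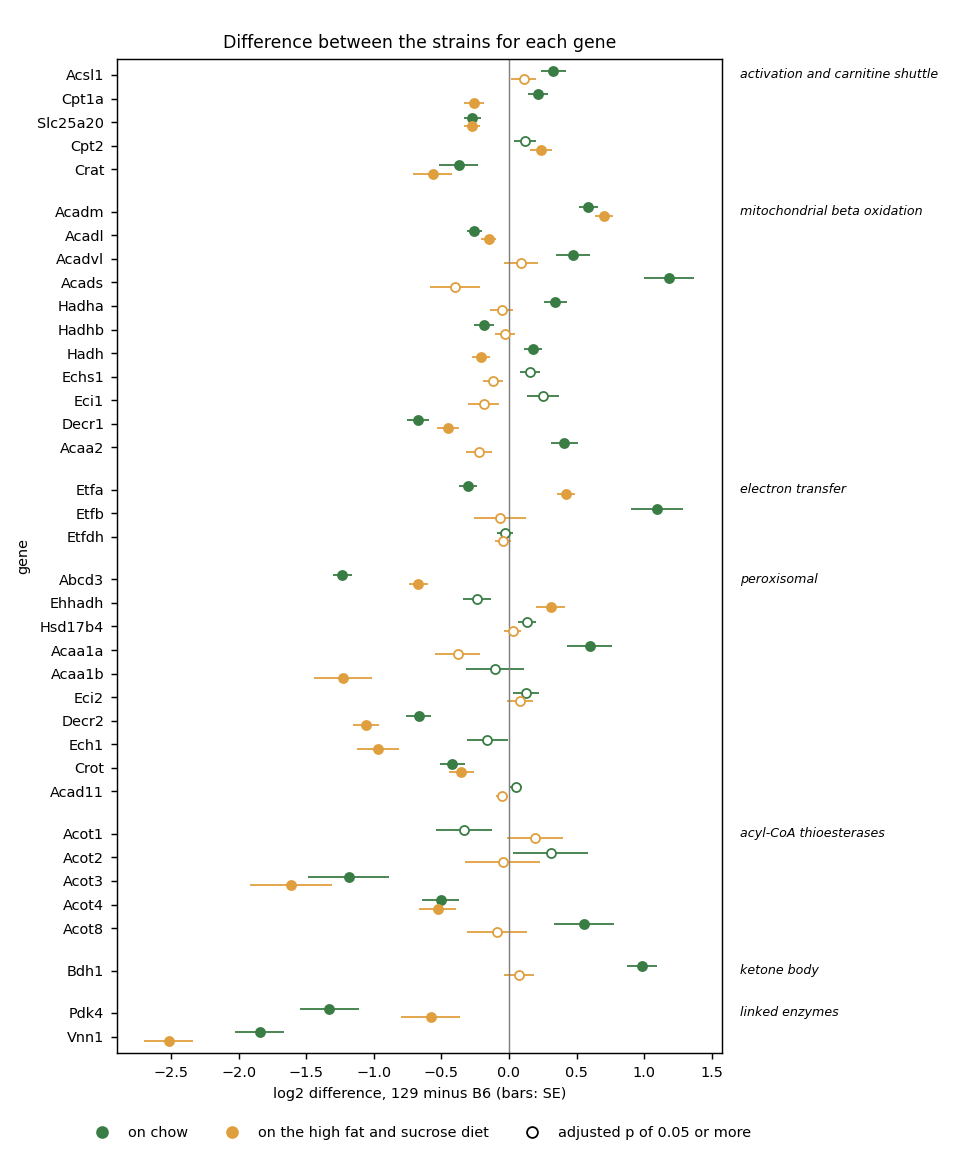
Log2 difference between the strains, 129 minus B6 (x axis, mean over 6 times, bars are SE), for each of the 37 genes (y axis, grouped by step) on chow and on the high fat and sucrose diet. Filled points have an adjusted p below 0.05. Vnn1 lies farthest left at -1.84 and -2.52, and Acadm lies right of 0 on both diets (0.59 and 0.70).

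Each gene was fitted with a 24 h cosine, whose amplitude is the log2 distance from the mean to the peak. In B6 chow 3 of the 37 genes passed (6.149% of all genes), in the B6 mice on HFD 4 (4.085%), in 129 chow 22 (47.8%) and in 129 HFD 6 (7.053%). Of the 22 genes in 129 chow, 5 belonged to the 11 of mitochondrial beta oxidation and 5 to the 10 of the peroxisome. In 129 chow, time of day and the Mir6236 level cannot be told apart, since that level was 27.7 to 3213 in all 9 libraries at ZT2, ZT6 and ZT10 and 35151 to 61431 in 8 of the 9 at ZT14, ZT18 and ZT22 (53.8 at ZT14 replicate 1). The counts also moved with the test. B6 chow had 15 with an F test over the 6 time means, when 25.8% of all genes passed. With only the libraries compared, B6 HFD had 0 (1.36% of all genes) and 129 HFD 14 (24.4%, limma). In the fit of all 4 sets B6 HFD had 7 at an unadjusted p below 0.05.

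Crot passed in all 4 wild-type sets. In B6 chow its mean signal was 9068 at ZT2 (6357, 9818 and 11028) and 3420 at ZT18 (2904, 3422 and 3933). Its amplitude was 0.74 (SE 0.11) with a peak at ZT 4.71 (SE 0.56 h). In 129 chow it was 1.10 with a peak at ZT 3.83, in B6 HFD 0.48 with a peak at ZT 2.62 and in 129 HFD 0.70 with a peak at ZT 3.11. The B6 HFD call was lost without ZT14 replicate 1 (adjusted p = 0.059).

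Pdk4 was high around lights on. In B6 chow it was at 215, 237 and 170 at ZT2 and at 26.7, 29.3 and 10.304 at ZT14, with an amplitude of 1.49 (SE 0.25) and a peak at ZT 0.99. In 129 chow the values at ZT2 were 81.2, 79.5 and 77.0 and those at ZT14 were 18.7, 9.73 and 7.24, an amplitude of 1.44 with a peak at ZT 0.25. In B6 HFD the amplitude was 0.98 (adjusted p = 0.036, lost when any 1 of 8 libraries was left out), and its replicates were far apart, with 254, 45.6 and 34.2 at ZT22. In 129 HFD 0.66 did not pass (adjusted p = 0.25).

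Cpt1a peaked near lights off, about opposite to Pdk4. In 129 chow its mean rose from 1041 (SD 59.0, n = 3) at ZT2 to 3203 (SD 286, n = 3) at ZT14, an amplitude of 0.90 (SE 0.08) with a peak at ZT 12.9. In 129 HFD the amplitude was 0.45 (peak ZT 12.8) and in B6 chow 0.31 (peak ZT 12.2, adjusted p = 0.023). The B6 chow call was lost without ZT10 replicate 2 (adjusted p = 0.051), ZT14 replicate 1 (0.061) or ZT14 replicate 2 (0.089). In B6 HFD 0.21 did not pass. Acot3 had amplitudes of 1.45 in 129 chow (peak ZT 16.6), 1.49 in 129 HFD (peak ZT 13.1) and 1.27 in B6 HFD (peak ZT 12.3), the last lost when any 1 of 4 libraries was left out. Crat, with an amplitude of 1.12 in 129 chow, had means of 82.6 at ZT10 and 343 at ZT22. Acot1 had an amplitude of 1.02 in 129 HFD (peak ZT 18.9), and Acot4 one of 0.62 in B6 HFD (peak ZT 13.4), lost without ZT14 replicate 2 (adjusted p = 0.058). Bdh1, Acadm and Ehhadh passed in none of the 4 wild-type sets.

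**Figure D5:**
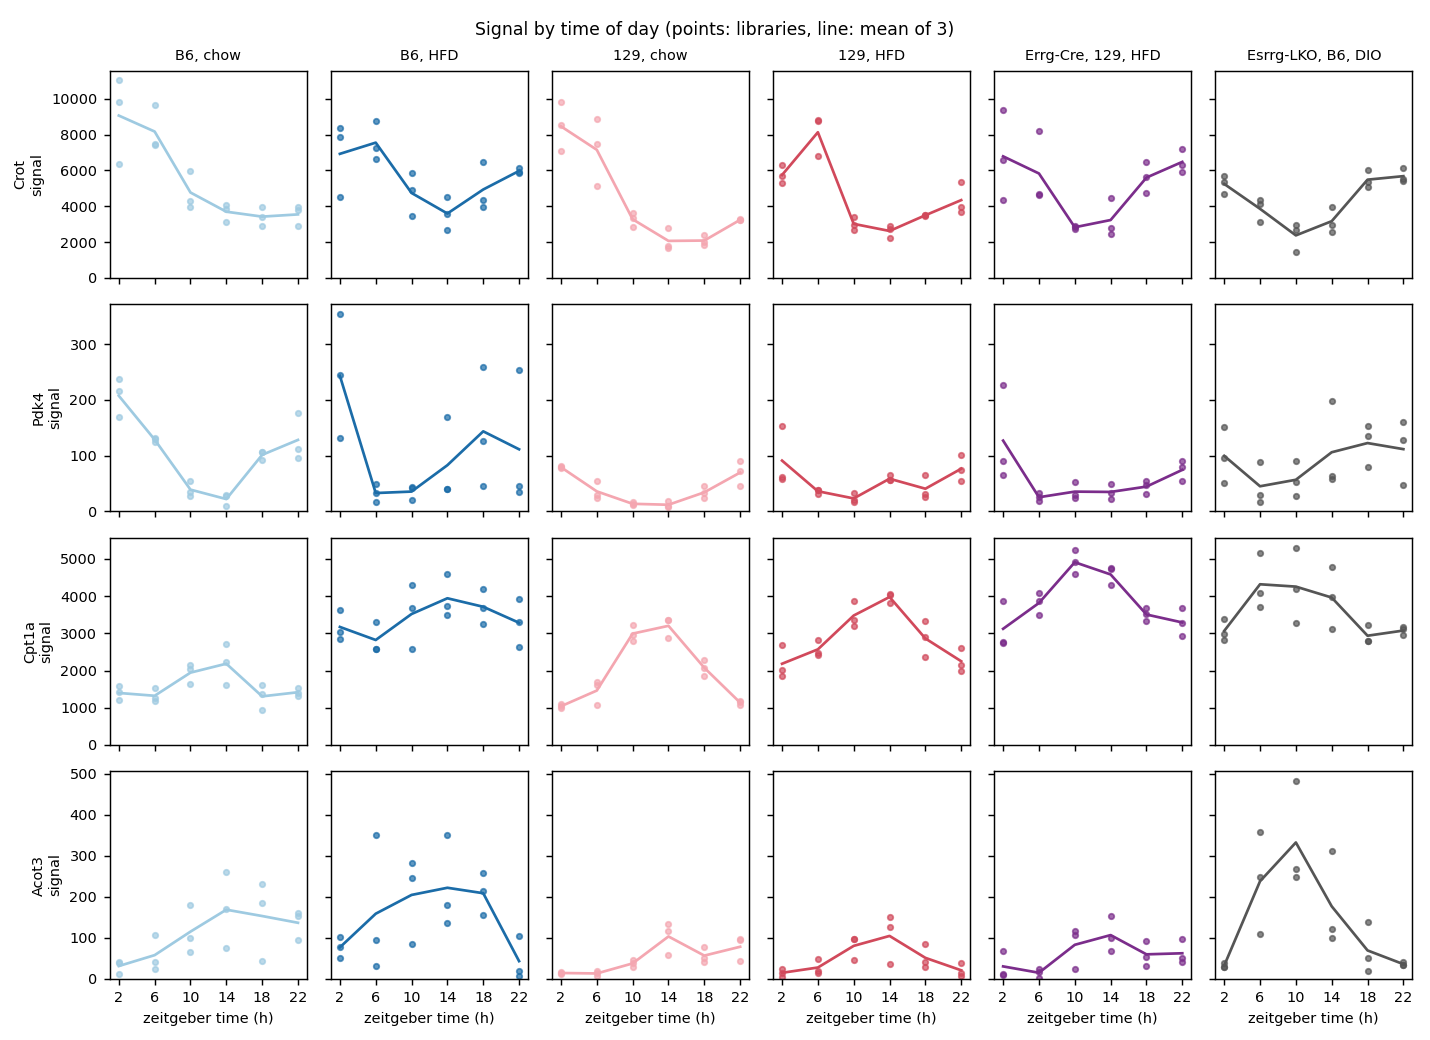
Signal of Crot, Pdk4, Cpt1a and Acot3 (rows, y axes) against zeitgeber time in hours (x axis) in the 6 sets (columns), with each library as a point and the mean of 3 as a line. Crot falls from ZT2 to ZT18 in B6 chow (9068 to 3420), and Cpt1a is highest at ZT14 in 129 chow (3203). The last 2 columns were normalised separately, so their heights are not compared with the others.

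The differences between rhythms were tested as such. No gene of the 37 changed its rhythm with diet in B6 (limma, 0.05316% of all genes called) or in 129 (1.258%), and at an unadjusted p below 0.05 the counts were 5 and 12. Cpt1a in 129 came nearest, with a difference of 0.45 and adjusted p = 0.0502. In 129, 2 genes passed without B6 HFD ZT22 replicate 3 (Cpt1a and Acsl1) and 2 without 129 chow ZT6 replicate 3 or ZT14 replicate 1 (Cpt1a and Acads). Between the strains on HFD none differed either (0.0443% of all genes, 1 gene at an unadjusted p below 0.05).

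On chow 3 genes differed in rhythm between the strains (13.08% of all genes). They were Cpt1a (length of the difference 0.60, adjusted p = 0.0012), Hadhb (0.43, adjusted p = 0.023) and Acot8 (1.24, adjusted p = 0.021). Hadhb was at 1294 (SD 93.5, n = 3) at ZT2 and 698 (SD 107, n = 3) at ZT22 in 129 chow, and in B6 chow at 1122 and 1067. Acot8 is scarce, with medians of 18.01 and 26.5, and did not pass without B6 chow ZT14 replicate 3, the library with the most genes below 1. The count rose from 3 to 7 without B6 HFD ZT22 replicate 3 (15.6% of all genes). It rose to 11 without 129 chow ZT6 replicate 3, where the share of all genes was not counted. The Mir6236 covariate gave a count of 1 (0.682%). With the GC and length trend removed 4 genes were called (6.91% of all genes), Cpt1a again with Acadl, Abcd3 and Decr2. Hadhb (0.19, adjusted p = 0.27) and Acot8 (0.90, adjusted p = 0.056) did not pass. The Mir6236 level in 129 chow was also far apart between these times, as given above for the rhythms. The 22 rhythms of 129 chow were also affected, since 11 genes passed with the covariate, 10 of them among the 22, when 14.8% of all genes did. Cpt1a (0.86), Crot (0.91), Pdk4 (1.43) and Acot3 (1.47) were among the 10, and Acads (0.29) and Etfb (0.16) were not. The part of that level in these rhythms was not tested.

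In the Errg-Cre and knockout sets, each within its own table, Acot3 had the greatest amplitude of the genes that passed. In Errg-Cre livers 9 of the 37 genes were rhythmic (17.85% of all genes). The greatest amplitudes were those of Acot3 (1.33), Pdk4 (0.83) and Crot (0.65, peak ZT 23.9). Cpt1a had 0.34 with a peak at ZT 11.5, and Bdh1 had 0.36 with a peak at ZT 7.95. Bdh1 was at 2776, 2693 and 2321 at ZT6 (the last from the replicate with high Arntl) and at 1233, 1336 and 1602 at ZT18. The count of 9 fell to 5 without the ZT6 replicate 1 library of this set, where the share of all genes was not counted. The count was 6 without both libraries with high Arntl, a check chosen after seeing the data, when 13.8% of all genes passed. Acads, Etfb and Acot4 were then lost, and Acot3 (1.10), Pdk4 (0.94), Crot (0.64), Cpt1a (0.35) and Bdh1 (0.43) passed. Without ZT6 replicate 3 alone, Acot3 (1.07) had an adjusted p of 0.0500404.

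In Esrrg LKO livers 6 were rhythmic (6.086% of all genes). Acot3 had an amplitude of 1.76 with a peak at ZT 10.14, from a mean of 31.7 at ZT2 to 333 at ZT10. Acot4, its neighbour on chromosome 12, had 0.68 with a peak at ZT 10.6, and Crot 0.66 with a peak at ZT 22.4. Acsl1 (0.43), Cpt1a (0.30) and Eci2 (0.27) also passed, and the call of Cpt1a was lost when any 1 of 6 libraries was left out. Crot was the only gene of the 37 to pass in all 6 sets, and Cpt1a and Acot3 passed in 5 of 6.

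Levels in these sets are given without a test. The sets were normalised separately and differ in strain label and genotype, so their levels are not compared with each other. Cpt1a lay between 2731 and 5245 (median 3781) in Errg-Cre and between 2785 and 5304 (median 3256) in the knockout. Bdh1 lay between 1233 and 2776 (median 1712) and between 1002 and 1771 (median 1396). Acadm lay between 3458 and 6016 (median 4057) and between 1484 and 2217 (median 1854). Ehhadh had medians of 2032 and 1368, Pdk4 48.7 and 84.6, and Vnn1 135 and 676. Hadhb had a median of 1878 in Errg-Cre and 503 in the knockout, where all 18 libraries were between 400 and 618. Hadha had medians of 2675 and 2106. Of the 18 knockout libraries 1 had a summed Kupffer cell marker level of 15024, against a median of 2924.

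A further 36 genes of the same pathways, from a separate list, were tested in the same fit. In B6 20 rose with diet and 4 fell, where 27.5% of all genes rose and 32.67% fell. In 129 16 rose and 6 fell, where 10.89% and 7.452% did. The rises in each strain include Fgf21, which passed the filter through its HFD libraries, so its rise is not independent of the filter. Acat1, a mitochondrial thiolase that acts on acetoacetyl-CoA, rose in both strains (0.64 and 0.55). Ppara, which encodes PPAR alpha, rose by 0.81 and 0.52.

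Fgf21, a fasting hormone of the liver, had medians of 0.602 in B6 and 1.87 in 129 on chow and of 16.0 and 24.7 on HFD, and it reached the mean of 10 needed for testing through the HFD libraries. Other rises were those of Esrra (1.62), a nuclear receptor of mitochondrial genes, and Mlycd (1.16), which degrades malonyl-CoA, in B6, and Acad10 (0.74) in 129. The coactivators Ppargc1b (-0.87 and -0.80) and Ppargc1a (-0.57 and -0.48) fell in both strains, and Acsl4 fell in B6 (-0.73). Acacb, which makes the malonyl-CoA that blocks Cpt1a, fell in 129 (-1.27, SE 0.26), and in B6 its difference of 0.27 did not pass. The diet effects on Acacb differed between strains (-1.55, adjusted p = 0.0012).

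Between strains 10 of the 36 were higher and 9 lower in 129 on chow, where 25.45% and 27.5% of all genes were. On HFD 5 were higher and 10 lower, where 19.01% and 13.3% were. Abcd2, the peroxisomal transporter of very long chains, was lower by far, with differences of -2.66 on chow and -3.17 on HFD. Acsl3 (-1.38 and -1.08) and Acacb (-0.89 and -2.43) were lower on both diets. Acad10 (1.29 and 1.06) and Acox2 (0.97 and 0.80), an oxidase for bile acid precursors, were higher on both. Esrra was higher on chow (1.57) and Pecr on HFD (0.61). In the test of the difference between diet effects 10 of the 36 had a more negative effect in 129 (14.26% of all genes), with Esrra (-2.11) and Acacb in the lead. The Mir6236 and GC alternatives were run for the 37 genes and not for these.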

How the data were processed

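Per the labels' protocols, Trizol and RNeasy columns were used to isolate liver RNA for TruSeq libraries. Reads were processed with STAR and HOMER on mm10, per the submitters' processing notes, with versions not given in the sources used here. The authors deposited quantile-normalised signal per transcript in 3 tables, 1 for wild type (72 libraries), 1 for Errg-Cre and 1 for Esrrg LKO (18 libraries each). Every library of a table totals 10837743, 12305608 or 10346206 in that order. A further 18 value columns matched no label and were not used, and 91 transcripts had no symbol.

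From these values, the transcript with the highest mean was kept per symbol, genes with a mean of at least 10 were kept (11286, 11621 and 11945), and log2(signal + 1) was fitted with limma 3.58.1 in R 4.3.3 (trend, Benjamini-Hochberg over all genes kept, threshold 0.05). The fit across the 72 wild-type libraries had 24 group means, with effects averaged over 6 times. Rhythms used a moderated F test of cosine and sine terms with a 24 h period. Tables were normalised separately and no test was run across them. The steps were tested on simulated data. Sequence identity came from blastn 2.17.0, and positions are on mm10.

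Any of the 37 genes could be named. Values by library or range were given for the 4 largest changes per comparison with 1 sign at all 6 times, the 3 largest amplitudes per set, and Cpt1a, Bdh1, Pdk4, Acadm and Ehhadh. Of the 36 further genes up to 3 rises and 3 falls per comparison were named, with Ppara, and some named by that rule are not reported here. Further values shown, such as those of Acat1, Hadhb and Etfa, were chosen after they were seen. The genes, lists and alternatives were chosen with earlier results of these data known. The alternatives were other pseudocounts and filters, transcripts summed per symbol, GC and length correction, the Mir6236 covariate, a replicate block, fewer libraries and an F test over the 6 time means. Leaving out the 2 Errg-Cre libraries with high Arntl was chosen after seeing the data. The share of all genes was not counted at an unadjusted p. It was also not counted with single libraries left out, except B6 HFD ZT22 replicate 3.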

Additional observations from a re-analysis of the deposited data

Results flagged for a closer look

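The diet effect differed between the strains, by limma's interaction test, for 17 of the 37 genes, where it did for 34.39% of all genes. With the Mir6236 covariate 0 of the 17 passed (limma). As 129 minus B6 on the log2 scale, the difference was -0.48 for Cpt1a in the carnitine shuttle. Among mitochondrial genes it was -1.58 for Acads, -0.40 for Hadha, -0.39 for Hadh, -0.27 for Echs1, -0.44 for Eci1 and -0.63 for Acaa2. For electron transfer it was 0.72 for Etfa and -1.16 for Etfb. Among peroxisomal genes it was 0.56 for Abcd3, 0.54 for Ehhadh, -0.98 for Acaa1a, -1.12 for Acaa1b, -0.39 for Decr2 and -0.81 for Ech1. It was -0.91 for Bdh1 and -0.67 for Vnn1. The calls of Echs1, Eci1 and Vnn1 were each lost when 1 of several single libraries was left out.

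The rhythm differed between strains on chow, by a moderated F test, for Cpt1a (0.60), Hadhb (0.43) and Acot8 (1.24), given as the length of the difference on the log2 scale. With the Mir6236 covariate, or with the GC and length trend removed, only Cpt1a of these 3 passed (0.56 in both).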

How the results depend on the processing

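Depth is unknown, so counting error could not be given, and scarce genes such as Acot2, Acot8 and Fgf21 are the least certain. With the GC and length trend removed, 4 strain differences on chow changed sign, with or without the replicate block, to 0.041 for Acadl, 0.099 for Hadhb, 0.0035 for Etfa and 0.19 for Etfdh. With the Mir6236 covariate the signs changed for Acot8 on chow (-0.11), Etfb between strains on HFD (0.55) and, in the interaction, for Hadha (0.20), Eci1 (0.17), Etfb (0.27), Acaa1a (0.019) and Ech1 (0.22). The covariate left 8 genes for diet in B6 (5.01% of all genes), 10 for strain on chow (12.8%) and 0 for the interaction (0.124%, limma). It left 11 rhythms in 129 chow (14.8%) and 1 rhythm difference between strains on chow (0.682%). The cause was not tested.

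Counts of rhythms also moved. The 24 h rhythms of B6 chow rose from 3 to 5 with the GC trend removed, without or with the block (8.13% and 8.04% of all genes). They rose to 15 with the F test over time means (25.8%). Those of B6 HFD went from 4 to 2 with no filter on low values (1.28%) and to 0 (limma) with only the libraries compared (1.36%). Those of 129 HFD went from 6 to 14 with only the libraries compared (24.4%), and those of Errg-Cre from 9 to 4 with no filter (5.33%). The strain difference on chow went from 3 to 5 with a mean of at least 50 (19.4% of all genes) or the F test (17.7%). The change with diet went from 0 to 1 in B6 with the GC trend removed (with or without the block) or the F test. Under these settings 0.0797% to 3.6% of all genes passed. In 129 it went from 0 to 1 with a pseudocount of 0.5 or 10, a mean of at least 50, the GC trend removed (with or without the block) or without the 3 libraries with the most genes below 1, and to 2 with only the libraries compared. The interaction needs all 4 sets, so it could not be fitted on fewer.

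Leaving out 1 replicate number, or B6 HFD ZT22 replicate 3, gave 10 to 21 genes for diet in 129 (4.93% to 20% of all genes). It gave 11 to 19 for strain on HFD (18.4% to 32.5%) and 9 to 18 for the interaction (11.5% to 35.7%). Rhythms numbered 0 to 5 in B6 HFD (1.24% to 3.54% of all genes) and 10 to 23 in 129 chow (19.2% to 50%). They numbered 2 to 9 in 129 HFD (2.08% to 8.17%) and 2 to 4 in Errg-Cre (3.17% to 4.26%). There were 1 to 7 rhythm differences on chow (0.0709% to 15.6%) and 0 to 2 changes with diet in 129 (0% to 1.83%). With single libraries left out, the B6 HFD rhythms fell to 2 without ZT14 replicate 1.

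The labels do not say what a replicate number shares. In each comparison of sets at most 5 of 18 same-numbered pairs correlated above 0.1, the highest at 0.67 (B6 chow with 129 chow). These correlations cannot decide whether samples were paired. The replicate block gave 29 genes for diet in B6 (60% of all genes) and 18 for diet in 129 (18%). It gave 25 and 19 for strain on chow and HFD (52.8% and 32.2%). For the interaction it gave 17 (34.4%), and for rhythms in Errg-Cre 10 (15.4%). No count moved by more than 1.5 times with the block alone.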
